A study of Homo sapiens with 48 samples.

Results

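A group of 7 membrane transporter genes that have been linked to the handling of imatinib were examined in K562 cells: the uptake carrier gene SLC22A4 and the efflux pump genes ABCG2, ABCB1, ABCC1, ABCC2, ABCC4 and ABCC5. They were chosen by name, with earlier results of these data known, so counts of them beside all probe sets are a description. Every probe set of the array annotated to 1 of these symbols was taken. This gave 8 probe sets for 7 of the 11963 genes measured, with 2 probe sets for ABCC1 and 1 for each other gene. A further probe set, 209994_s_at, is annotated to both ABCB4 and ABCB1 and is described apart.

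The tested cells were K562 cells kept for 24 hours in 1 micromolar imatinib, and the controls were mock-treated K562 cells. K562, an established human leukaemia line, depends on the fusion kinase BCR-ABL1, which imatinib inhibits, and all samples share this 1 line and its fusion gene. The 48 samples lie in 8 sets lettered A to H, each with 3 imatinib and 3 mock samples. The labels used here give neither the meaning of a letter nor the length of the mock treatment, and do not say that samples were separate cultures. The p-values therefore reflect only how much these samples vary, and that variation may be technical. RNA of imatinib cells was purified on RNeasy columns alone and RNA of mock cells with Trizol before the columns, in every set. Treatment and RNA isolation therefore cannot be told apart. Nor can a lower share of cells with a transcript and less of it per cell be told apart in RNA from whole cultures.

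How much of a drug stays inside a cell depends on carriers that let it in and on pumps that push it out. Pumps of the ABC family use ATP to move substrates across membranes. ABCB1 (P-glycoprotein) and ABCG2 (breast cancer resistance protein) both export imatinib, while the ABCC pumps mainly export organic anions and conjugates. Carriers of the SLC22 family move organic ions without ATP. SLC22A4 encodes OCTN1, a carrier of ergothioneine and organic cations that has been linked to imatinib uptake.

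Values are log2 levels per probe set as deposited, so they rank samples within a probe set but not genes against each other. The mean level of a whole array lay between 5.89 and 7.6 over the sets, so levels were compared within sets. A change is the log2 level in imatinib samples minus that in mock samples, given with its standard error (SE) from a fit of all 24 imatinib and 24 mock samples with set as a factor. Tests were limma's, two-sided, with Benjamini-Hochberg adjustment over 22215 probe sets, and called means an adjusted p under 0.05. Of all probe sets, 65.2% were called, 39.3% higher and 25.8% lower after imatinib, so a call alone sets no gene apart. With arrays centred on their medians, 6194 probe sets were called higher and 6638 lower, against 8740 and 5738 as deposited. Percentiles of brightness describe where a probe set stands on the array and not the amount of its transcript. Of 9 marker genes of erythroleukaemia lines 8 were measured, and they lay between the 75.8th and 99.7th percentiles. Genes of other tissues reached the 79.1st, so brightness alone does not settle the identity of the cells. The 3′ minus 5′ difference of the ACTB control, a sign of RNA integrity, averaged -0.29 in imatinib and -0.44 in mock samples, and it was higher after imatinib in 6 of 8 sets (exact sign-flip permutation test, two-sided p = 0.0469, 0.0938 adjusted over 2 control genes). For GAPDH it was 0.32 in imatinib and 0.3 in mock samples (exact sign-flip permutation p = 0.531). The part of RNA integrity in the results below was not tested.

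Imatinib-treated cells had more SLC22A4 and ABCG2 transcript in all 8 sets, while the 5 other pump genes were called higher by at most 1.16-fold or were not called. SLC22A4 was 6.62-fold and ABCG2 1.77-fold higher. ABCC4, ABCC5, ABCC2 and ABCB1 were called higher by 1.16-fold, 1.13-fold, 1.14-fold and 1.09-fold. Neither probe set of ABCC1 was called. Thus 6 of the 8 probe sets, of 6 of the 7 genes, were called higher and 0 lower, beside 39.3% and 25.8% of all probe sets. The median change was 0.18 over the 8 probe sets and 0.05 over all probe sets.

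SLC22A4 (205896_at), the uptake carrier, showed the largest change of the 7 genes. Its level averaged 9.24 in imatinib samples and 6.51 in mock samples (n = 24 each), a log2 change of 2.73 ± 0.0487 (SE; 95% confidence interval 2.63 to 2.82; limma adjusted p = 4.26e-41). This is a 6.62-fold rise with an interval of 6.18 to 7.08. Of all probe sets, 99.9% had a smaller rise or a fall, and SLC22A4 ranked 28 from the top. The probe set stood at a median percentile of 92.2 for brightness in imatinib samples and 53.1 in mock samples.

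In set A the SLC22A4 level was 8.74, 8.76 and 8.79 in the imatinib samples, against 6.04, 6.10 and 6.10 in the mock samples. Set B gave 10.39, 10.38 and 10.40 with imatinib, against 7.40, 7.53 and 7.72 in mock, and set C gave 8.70, 8.82 and 8.49 with imatinib, against 5.71, 5.91 and 5.85 in mock. In these 3 sets each imatinib sample lay far above each mock sample, although the sets stood at different heights. Set D had 9.14, 9.03 and 9.09 with imatinib, against 6.21, 6.56 and 6.34 in mock. Set E had 8.43, 7.61 and 8.09 with imatinib, against 5.30, 5.87 and 5.55 in mock. Set E held the widest spread of this gene among imatinib samples, and its groups still did not overlap. Set F had 9.32, 8.77 and 9.29 with imatinib, against 6.23, 6.40 and 6.34 in mock. In set G the values were 10.31, 10.26 and 10.24 with imatinib, against 7.30, 7.65 and 7.48 in mock, and in set H they were 9.47, 9.65 and 9.60 with imatinib, against 7.02, 6.99 and 6.72 in mock. All 3 imatinib samples exceeded all 3 mock samples in each of the 8 sets, which 5.43% of all probe sets did.

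The size of the SLC22A4 rise was nearly the same in every set. The smallest change was 2.47 in set E and the highest 2.85 in set C, and between them stood set H (2.66), set A (2.68), set D (2.71), set G (2.79), set F (2.80) and set B (2.84). It was called in all 8 sets when each was fitted alone. The SD over the sets was 0.13 around a median of 2.75, and the set-by-treatment test gave an adjusted p of 0.703 in limma.

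**Figure D1:**
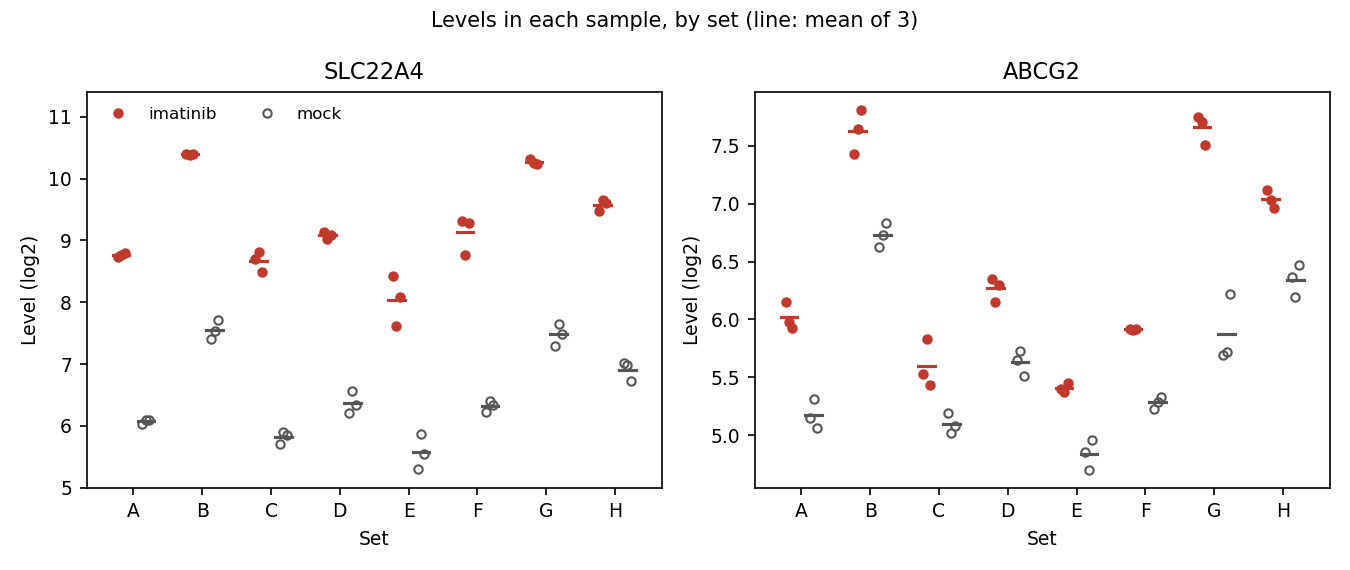
Log2 level (vertical axis, as deposited) of SLC22A4 (left) and ABCG2 (right) in every sample, by set along the horizontal axis, with imatinib samples (filled) left of mock samples (open) and a line at each mean of 3. In all 8 sets every imatinib sample lies above every mock sample of its set, and the gap of ABCG2 is widest in set G.

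The promoter windows of the 2 genes that rose most are shown as background to their rise. They come from RefSeq on assembly GRCh38.p14 and hold the 250 bases before a transcription start, written 5′ to 3′ on the gene's strand. Capitals mark matches, on either strand, to 4 short motifs: GATAA (bound by GATA factors), CACCC (KLF factors), GGGCGG (Sp1) and CACGTG (the E-box). The SLC22A4 window is chr5:132294144-132294393 on the plus strand. The ABCG2 window is chr4:88159291-88159540 on the minus strand, before the most upstream of 4 ABCG2 starts that lie close together.
SLC22A4: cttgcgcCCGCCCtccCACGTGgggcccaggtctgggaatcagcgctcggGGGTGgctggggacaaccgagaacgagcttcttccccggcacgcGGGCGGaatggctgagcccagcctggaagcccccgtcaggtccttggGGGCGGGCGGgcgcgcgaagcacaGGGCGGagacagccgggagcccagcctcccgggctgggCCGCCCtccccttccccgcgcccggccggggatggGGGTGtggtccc
ABCG2: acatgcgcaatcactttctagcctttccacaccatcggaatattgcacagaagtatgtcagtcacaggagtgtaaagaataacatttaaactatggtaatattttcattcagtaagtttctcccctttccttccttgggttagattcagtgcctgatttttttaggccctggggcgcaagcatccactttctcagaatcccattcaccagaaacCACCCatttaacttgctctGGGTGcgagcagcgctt

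The SLC22A4 window held GGGCGG 6 times with overlaps counted, CACCC 2 times, CACGTG 1 time and GATAA 0 times. The ABCG2 window held CACCC 2 times and none of the other 3. Of 35116 promoter windows of this length, 42.6% held GGGCGG, 54.7% CACCC, 6.34% CACGTG and 20.4% GATAA. Among the 4 other ABCG2 windows, 1 or more held each of the motifs not found in this window. A match describes letters only, and no binding was measured here.

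ABCG2 (209735_at), a short pump that works as a dimer and also exports porphyrins and urate, rose in all 8 sets but by an amount that differed between them. Its level averaged 6.44 in imatinib samples and 5.62 in mock samples (n = 24 each). The log2 change was 0.82 ± 0.0669 (SE; 95% interval 0.69 to 0.95; limma adjusted p = 3.37e-15), a 1.77-fold rise with an interval of 1.61 to 1.94. Of all probe sets, 98.0% had a smaller rise or a fall. Its median percentile of brightness was 50.3 in imatinib samples and 32.7 in mock samples.

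Set G had the highest ABCG2 change. Its imatinib samples stood at 7.75, 7.71 and 7.51, against 5.69, 5.72 and 6.22 in its mock samples, a change of 1.78 or 3.44-fold (95% interval 1.46 to 2.11; limma adjusted p = 1.39e-05 within the set). Set C had the lowest, with 5.53, 5.83 and 5.43 in imatinib samples, against 5.19, 5.02 and 5.08 in mock samples, a change of 0.50. Both sets were free of overlap. Set B gave 7.43, 7.65 and 7.81 with imatinib, against 6.63, 6.73 and 6.83 in mock, and set H gave 7.12, 7.03 and 6.96 with imatinib, against 6.37, 6.19 and 6.47 in mock. Set A gave 6.15, 5.98 and 5.93 with imatinib, against 5.15, 5.31 and 5.06 in mock. In these 3 sets the changes were 0.90 in B, 0.69 in H and 0.85 in A. Set D gave 6.35, 6.15 and 6.30 with imatinib, against 5.65, 5.73 and 5.51 in mock. Set E gave 5.40, 5.37 and 5.45 with imatinib, against 4.85, 4.70 and 4.96 in mock, and set F gave 5.92, 5.91 and 5.92 with imatinib, against 5.23, 5.29 and 5.33 in mock. The changes were 0.64 in D, 0.57 in E and 0.63 in F. ABCG2 was thus called higher, with no overlap of the groups, in each of the 8 sets. Of all probe sets, 5.43% had imatinib samples wholly above mock samples in every set.

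The ABCG2 changes differed between sets by more than the spread of samples (limma F-test on the set-by-treatment terms, F = 14.4, adjusted p = 1.74e-06). It was the only 1 of the 8 transporter probe sets for which this test was called, beside 7.2% of all probe sets. Without set G the combined change was 0.68 (limma adjusted p = 5.34e-19). The SE and interval of the combined change take the sample as the unit, while the SD of the change over the sets was 0.41. With the set as the unit the limma adjusted p was 4.78e-05.

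**Figure D2:**
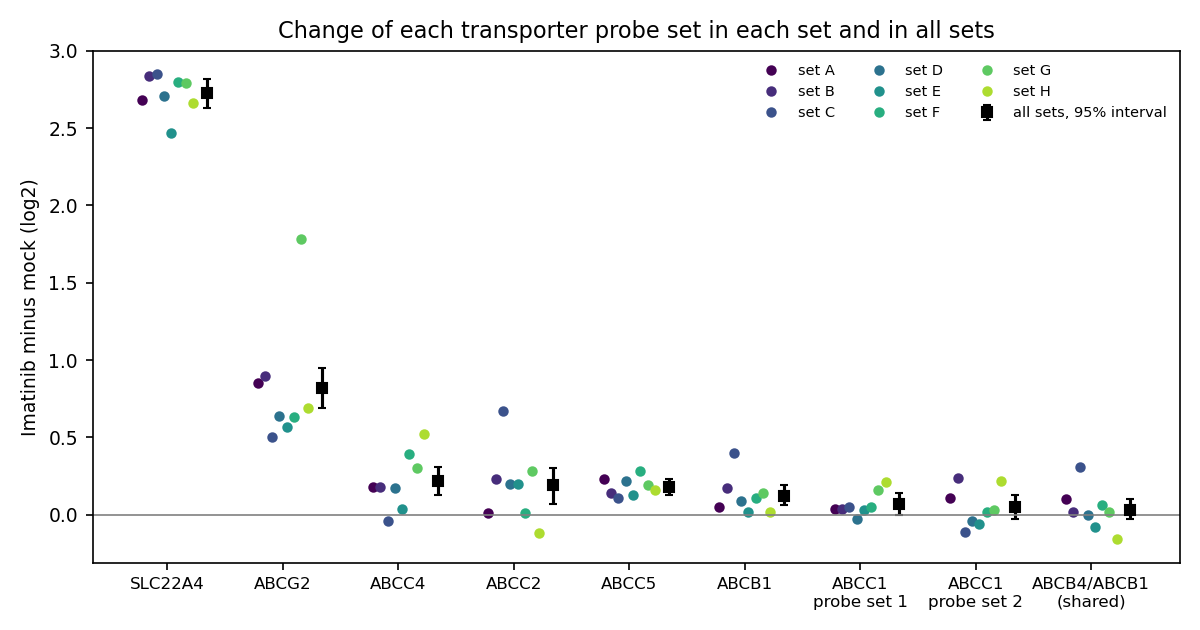
Log2 change (imatinib minus mock, vertical axis) of each transporter probe set, with a point per set and a black square for all sets with its 95% interval. ABCC1 probe set 1 is 202804_at and probe set 2 is 202805_s_at. SLC22A4 lies near 2.73 in every set, and ABCG2 lies between 0.50 and 0.90 in 7 sets and at 1.78 in set G. The other 6 probe sets of a single gene lie between -0.12 and 0.67. The probe set shared by ABCB4 and ABCB1 is also shown and lies between -0.16 and 0.31.

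ABCB1 (209993_at), P-glycoprotein, was dim and changed little. Its level averaged 4.55 in imatinib and 4.43 in mock samples, and the probe set stood at a median percentile of 11.3 (range 5.82 to 19.0 over the samples), below most probe sets on the array. The change was 0.12 ± 0.0308 (SE, n = 24 each; 95% interval 0.06 to 0.19; limma adjusted p = 0.00049), positive in all 8 sets. It was called in only 2 of them, B (0.17, adjusted p = 0.0369) and C (0.40, adjusted p = 0.00394). The call in B was lost with arrays centred (0.10, adjusted p = 0.222), under quantile normalization (0.13, adjusted p = 0.107), with the replicate number as a block (0.17, adjusted p = 0.0545) and in 4 of 6 fits that left out a sample (mock replicate 1, 2 or 3 or imatinib replicate 1, adjusted p = 0.0666 to 0.117). In set C the imatinib samples read 4.87, 4.72 and 4.70, against 4.36, 4.43 and 4.30 in mock samples. In 5 of 8 sets the groups overlapped. Among probe sets below the median level, 38.5% were called higher. The 22 measured genes of other tissues (25 listed), which a blood cell line is not known to use, gave 10 called higher and 0 lower with a median change of 0.07 (5 called higher after centring or quantile normalization). The shared probe set of ABCB4 and ABCB1 averaged 4.57 in imatinib and 4.53 in mock samples, with a change of 0.03 ± 0.0319 (SE; 95% interval -0.03 to 0.10; limma adjusted p = 0.346). It was called in set C alone (0.31, adjusted p = 0.00773).

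ABCC4 (203196_at), MRP4, a pump of cyclic nucleotides and prostaglandins, rose slightly. Its level averaged 7.99 in imatinib and 7.77 in mock samples, a change of 0.22 ± 0.0444 (SE, n = 24 each; 95% interval 0.13 to 0.31; limma adjusted p = 3.24e-05). The change ranged from -0.04 in set C to 0.52 in set H. Imatinib samples lay wholly above mock samples in 6 sets, beside 23.6% of all pairs of probe set and set. It was called in B (0.18, adjusted p = 0.0229), D (0.17, adjusted p = 0.0278) and H (0.52, adjusted p = 0.00715). Centring ended the calls in B (adjusted p = 0.176) and D (adjusted p = 0.178), leaving out mock replicate 2 or 3 or imatinib replicate 3 ended that in B (adjusted p = 0.067 to 0.0884), and that in D ended with the block (adjusted p = 0.0535), with a variance trend (adjusted p = 0.08) and without mock replicate 1 or any of the imatinib replicates (adjusted p = 0.0509 to 0.0927). A difference between sets was not called (adjusted p = 0.144).

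ABCC5 (209380_s_at), MRP5, which exports cyclic GMP, moved little but evenly. Its level averaged 8.23 in imatinib and 8.05 in mock samples, a change of 0.18 ± 0.0264 (SE, n = 24 each; 95% interval 0.13 to 0.23; limma adjusted p = 5.24e-08). All 8 sets gave a positive change, between 0.11 and 0.28. The imatinib samples lay wholly above the mock samples in 5 sets, beside 23.6% of all pairs of probe set and set. Only set D was called alone (0.22, adjusted p = 0.0179), a call that ended with centring (0.15, adjusted p = 0.0768) and without mock replicate 3 or imatinib replicate 1 or 2 (adjusted p = 0.0563 to 0.0658), and the set-by-treatment test gave an adjusted p of 0.87. Among probe sets at or above the median level, where ABCC4 and ABCC5 lie, 40.2% were called higher.

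ABCC2 (206155_at), MRP2, the canalicular export pump of hepatocytes, was dim (median percentile 33.7) and rose slightly in the combined fit. Its level averaged 5.73 in imatinib and 5.54 in mock samples, a change of 0.19 ± 0.0556 (SE, n = 24 each; 95% interval 0.07 to 0.30; limma adjusted p = 0.00334). The change ranged from -0.12 in set H to 0.67 in set C. It was called in C (adjusted p = 0.0274) and in B (0.23, adjusted p = 0.0106), and the groups overlapped in 5 sets. The call in B ended with centring (adjusted p = 0.0636) and quantile normalization (adjusted p = 0.0551), and that in C without mock replicate 2 or 3 or imatinib replicate 1 (adjusted p = 0.0773 to 0.101). The difference between sets had an adjusted p of 0.0952.

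ABCC1, MRP1, which exports glutathione conjugates and leukotriene C4, was not called by either probe set. The probe set 202804_at averaged 8.62 in imatinib and 8.55 in mock samples, a change of 0.07 ± 0.0325 (SE, n = 24 each; 95% interval 0.00 to 0.14; limma adjusted p = 0.0557). It passed the threshold under quantile normalization within sets (0.15, adjusted p = 1.15e-05) and had an adjusted p of 0.481 with arrays centred on their medians (0.03). The probe set 202805_s_at averaged 7.60 in imatinib and 7.55 in mock samples, a change of 0.05 ± 0.0394 (SE; 95% interval -0.03 to 0.13; limma adjusted p = 0.256). Neither was called in any set, where their changes ran from -0.03 to 0.21 and from -0.11 to 0.24. On the deposited scale the intervals end at 0.14 and 0.13.

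Over single sets, 24 of 64 tests of a transporter probe set were called higher and 0 lower, beside 14.9% and 15.3% of all probe sets over all sets. Of the 24, SLC22A4 and ABCG2 gave 16, and the other 6 probe sets gave 8 of 48. All 16 calls of SLC22A4 and ABCG2 stood under every alternative in which they were tested, and 2 of the 8 others did, ABCB1 in set C and ABCC4 in set H. Imatinib samples lay wholly above mock samples in 23.6% of all pairs of probe set and set. By set, the called numbers were 5 in B, 4 in C and in D, 3 in H and 2 each in A, E, F and G, where only SLC22A4 and ABCG2 passed.

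**Figure D3:**
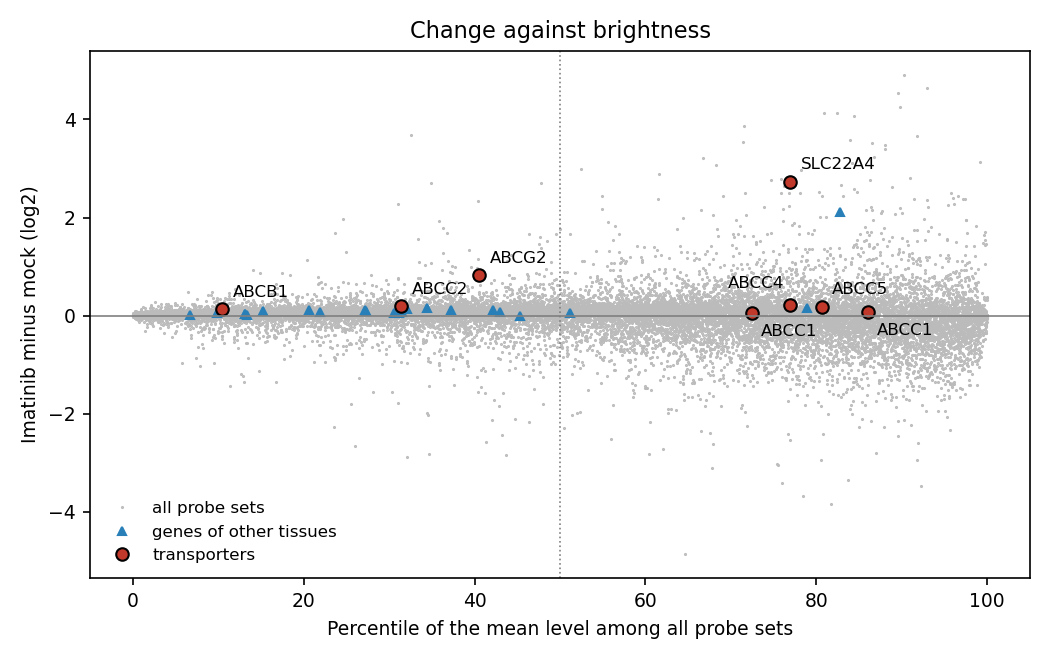
Combined log2 change (imatinib minus mock, vertical axis) against the percentile of the mean level (horizontal axis) for all 22215 probe sets in grey, with transporters as red circles and genes of other tissues as blue triangles. The dotted line marks the median level. SLC22A4 at 2.73 and ABCG2 at 0.82 stand above most probe sets of like brightness, and the other 6 transporter probe sets lie between 0.05 and 0.22.

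Genes with related roles were counted from lists, each gene by its brightest probe set. Over all 11963 genes 41.6% were called higher and 27.1% lower. Of 14 measured other genes of imatinib disposition (18 listed), 7 were called higher and 0 lower, with a median change of 0.08. After centring, 4 were called higher. CYP3A5, a drug-oxidising cytochrome P450, averaged 7.24 in imatinib and 5.58 in mock samples, a change of 1.66 ± 0.0984 (SE; limma adjusted p = 3.44e-20), with 1.11 as its lowest and 2.78 as its highest set. CYP3A5 was named after its values were seen, since its probe set lies just below the median brightness (percentile 49.0). CYP3A4, the main imatinib-oxidising enzyme, had a change of 0.05 (adjusted p = 0.137), by its brightest probe set, of a type that can also bind related transcripts, while its dimmer probe sets gave 0.30 (adjusted p = 8.53e-07), 0.11 (adjusted p = 0.0125) and 0.03 (adjusted p = 0.398). CYP2D6 was called higher by 0.14.

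Most measured carriers of the SLC22 family besides SLC22A4 were called higher, but apart from SLC22A5 their changes were small (0.08 to 0.17). Of 9 measured other SLC22 genes (17 listed), 8 were called higher and 0 lower, beside 41.6% and 27.1% of all genes. Their median change was 0.14, and only 3 of the 9 lay at or above the median level. SLC22A5, the carnitine carrier OCTN2, averaged 8.15 in imatinib and 6.70 in mock samples, a rise of 1.45 ± 0.0539 (SE; 2.73-fold; limma adjusted p = 3.43e-28), with set changes between 1.13 and 1.60. It is also on the list of imatinib disposition and is counted in both. SLC22A14 rose by 0.17 and SLC22A7 by 0.14. With arrays centred on their medians, or under quantile normalization, 5 of the 9 were called higher.

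Of 31 measured ABC genes outside the 7, 14 were called higher and 4 lower, with a median change of 0.06. No test compared the families, which are described one by one.

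Of 7 other ABCB genes (10 listed), 4 were called higher and 0 lower, with a median of 0.11. After centring or quantile normalization 2 were called lower, and 1 with the mean over a gene's probe sets. ABCB6, a porphyrin transporter, averaged 8.53 in imatinib and 7.17 in mock samples, a change of 1.36 ± 0.0312 (SE; limma adjusted p = 1e-36), while its dimmer probe set changed by 0.06 (adjusted p = 0.13). ABCB9 rose by 0.24 and the peptide transporter gene TAP1 by 0.11, and ABCB8 had a change of -0.10 (adjusted p = 0.0845). Of 9 ABCA genes (12 listed), which move lipids, 7 were called higher and 0 lower, with a median of 0.11. ABCA7 averaged 7.88 in imatinib and 7.11 in mock samples, a rise of 0.77 (limma adjusted p = 1.75e-18), and ABCA3 had a change of 0.01 (adjusted p = 0.8). ABCA8, named after its values were seen, averaged 7.11 in imatinib and 5.44 in mock samples, a rise of 1.67. Of 5 other ABCC genes (8 listed) 1 was called higher (2 with the mean over probe sets) and 0 lower, with a median of 0.06, and ABCC10 had a change of 0.01 (adjusted p = 0.665), while its dimmer probe set was called at 0.08 (adjusted p = 0.0388). Of 3 other ABCG genes (4 listed) 2 were called higher and 0 lower, with a median of 0.11.

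In the ABCD, ABCE and ABCF families 0 of 7 (8 listed) were called higher and 4 lower, with a median of -0.46. ABCE1, which recycles ribosomes, averaged 8.32 in imatinib and 9.36 in mock samples and fell by 1.05. ABCF2 averaged 8.08 in imatinib and 9.24 in mock samples and fell by 1.15, but its dimmer probe sets ran from -1.17 to 0.28. ABCF1, a translation factor, averaged 9.34 in imatinib and 9.81 in mock samples and fell by 0.46. ABCD3, a peroxisomal transporter, averaged 6.99 in imatinib and 7.50 in mock samples and fell by 0.51.

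**Figure D4:**
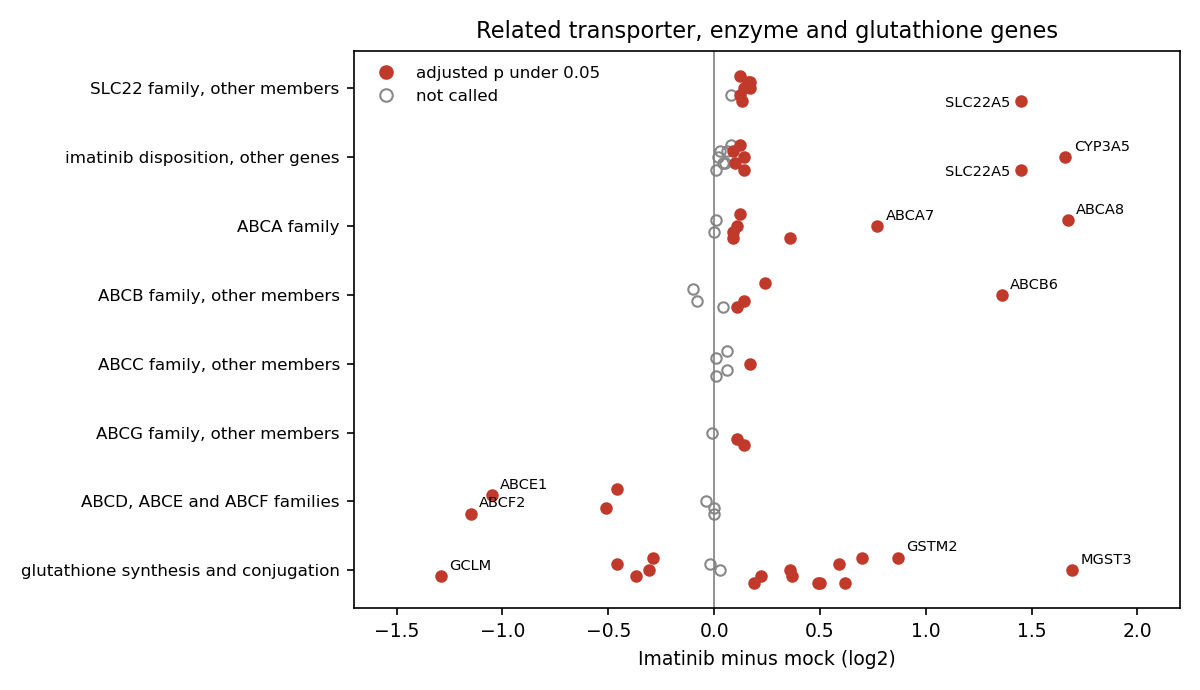
Combined log2 change (imatinib minus mock, horizontal axis) of the measured genes of 8 related lists, with a point per gene, filled where the adjusted p was under 0.05. SLC22A5 stands at 1.45 in the SLC22 list, with the rest of that list close to 0, and the called genes of the ABCD, ABCE and ABCF list lie left of 0.

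Regulators and partners moved in both directions, as did genes as a whole, of which 41.6% were called higher and 27.1% lower. Of 16 transcription factor genes linked to transporter genes (20 listed), 9 were called higher and 2 lower, with a median of 0.10. After centring, 5 were called higher. FOXO3, a forkhead factor held inactive by growth signalling, averaged 8.67 in imatinib and 7.54 in mock samples, a rise of 1.13. NFE2L2, which encodes NRF2, a known activator of several ABCC genes, averaged 8.07 in imatinib and 9.38 in mock samples and fell by 1.31, NFYA fell by 0.25, and KEAP1, the inhibitor of NRF2, rose by 0.15.

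ABCC pumps carry glutathione conjugates, and of 18 genes that make or conjugate glutathione (20 listed) 11 were called higher and 5 lower, with a median of 0.29. MGST3, a membrane glutathione transferase, averaged 11.66 in imatinib and 9.97 in mock samples, a rise of 1.69. GCLM, the modifier subunit of the rate-limiting enzyme of glutathione synthesis, averaged 7.86 in imatinib and 9.16 in mock samples and fell by 1.29. The transferase genes GSTM2, by a probe set that can also bind related GSTM transcripts, and GSTT1 rose by 0.87 and 0.70. Of 12 scaffold and trafficking genes of transporters (13 listed), 5 were called higher and 6 lower, with a median of -0.18. After centring, 3 were called higher. Moesin (MSN), which ties membrane proteins to actin, averaged 9.52 in imatinib and 10.59 in mock samples and fell by 1.07, whereas its relative radixin (RDX) averaged 9.65 in imatinib and 9.14 in mock samples and rose by 0.50. PIM1, a kinase known to phosphorylate ABCG2, averaged 9.99 in imatinib and 10.92 in mock samples and fell by 0.93. NHERF1, a scaffold of membrane transporters, fell by 0.38.

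Among 13 measured markers of other blood cells (14 listed), 5 were called higher (3 after centring or quantile normalization) and 2 lower, with a median change of 0.08. CD3D, a T cell receptor component, averaged 6.39 in imatinib and 8.12 in mock samples and fell by 1.73 (limma adjusted p = 7.88e-25), whereas CD3E (0.17), NCAM1 (0.18) and CD79A (0.12) were called higher. Dimmer NCAM1 probe sets gave 0.06 (adjusted p = 0.221), 0.05 (adjusted p = 0.392) and 0.08 (adjusted p = 0.0349). The markers of erythroleukaemia lines gave 8 higher and 0 lower, with a median of 0.98. Among them were the globin genes HBZ (3.13) and HBE1 (1.04) and the transcription factor genes TAL1 (2.44) and LMO2 (1.17). Dimmer probe sets gave 0.22 for HBE1 and 1.22 and 0.14 for TAL1. The genes of other tissues had a median percentile of brightness of 32.2, with 8.02 as the lowest and 79.1 as the highest, and the highest change among them was 2.10 for TNNI3, a troponin of heart muscle, with 0.16 for the lung surfactant gene SFTPC and 0.06 for thyroglobulin (TG, adjusted p = 0.188). The percentile of 79.1 is that of TNNI3, whose level changed with treatment, while SFTPC stood at 78.3. A percentile of brightness up to that of SFTPC therefore does not by itself show that a transcript is used by the cells.

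Genes whose levels ran like each transporter over the 48 samples, after the mean of each set was taken off, were found by Pearson correlation. This is a description, since the samples share treatment and set. The search took the brightest probe set of each gene, only at or above the median level, and left the transporters out. Genes below that level could not be picked. Of the genes searched, RELN (r = 0.994, change 3.24) and FEZ1 (r = 0.993, change 2.77) ran most like SLC22A4. TUBB1, the beta tubulin of platelets (r = 0.941, change 2.39), and ST3GAL5, the GM3 synthase (r = 0.934, change 0.77), ran most like ABCG2. Like ABCG2, both had their highest change in set G, with 4.01 for TUBB1 (1.10 to 3.09 in the other sets) and 1.21 for ST3GAL5 (0.54 to 0.84 in the other sets). The wide gap of ABCG2 in set G enters the correlation by which TUBB1 and ST3GAL5 were chosen, so their peak there is no separate sign of likeness. CYP3A5, chosen here after its values were seen, also had its highest change in set G, 2.78 (1.11 to 1.95 in the other sets). RELN had its highest change in set C (3.55) and FEZ1 in set F (3.05). The share of all genes that peak in set G is not given here, so the peak of CYP3A5 is no sign of likeness either. The highest r was lower for the pumps that changed little: SLK (r = 0.901) for ABCC4, TMPRSS2 (r = 0.893) for ABCC2, TXNL4B (r = 0.845) for ABCC5, COPB1 (r = 0.782) for ABCC1 and SLC7A4 (r = 0.757) for ABCB1. The treatment difference was not taken off, so r also depends on the size of a change beside the spread of samples. The order of these r values therefore does not rank the transporters by likeness.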

How the data were processed

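RNA of 48 K562 samples was measured on Affymetrix arrays. The authors deposited 1 log2 value per probe set and sample for 22283 probe sets, between 2.41 and 14.95. The log2 scale was inferred from this range. For background correction, probe summary and normalization the method is not given in the sources used here. Per the labels' protocols, targets came from about 8 micrograms of total RNA, less spike control RNA went into imatinib than into mock samples, and the imatinib samples' keywords name mock treatment while title and description give imatinib, which was used.

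The deposited log2 values were used unchanged, and no signal-to-background values were used. The number of arrays limits the precision. Control probe sets (68) were left out. Probe sets were named by the platform annotation, with symbols updated through RefSeq: 19065 had 1 symbol (19053 matched), 1043 several and 2107 none. Median replicate SDs were 0.0615 to 0.147 over the 16 groups. No replicate pair was identical, since the closest pair differed by up to 0.67.

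Tests used limma 3.58.1 in R 4.3.3 (lmFit, eBayes): the combined fit, each set alone (3 against 3), and an F-test on set-by-treatment terms, with Benjamini-Hochberg adjustment and a threshold of 0.05. The code of the fits was tried on simulated data with noise independent between samples. That trial does not bear on whether samples were separate cultures, or on the RNA isolation. A gene was represented by its brightest probe set. From each list up to 4 genes with the smallest p at or above the median level were named. For each transporter the 2 genes most like it were computed, among brightest probe sets at or above the median level, with the transporters left out. Members and lists were chosen with earlier results of these data known. Alternatives were centring, quantile normalization, a filter on dim probe sets, the replicate number as a block, a variance trend, the set as the unit, leaving out samples or sets, and the mean over a gene's probe sets. Promoter windows came from RefSeq for 6 of the 7 genes. ABCC1 has no window here. Figures used matplotlib 3.10.9.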

Additional observations from a re-analysis of the deposited data

Results flagged for a closer look

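The ABCG2 change differed between the sets. The largest change, in set G, minus the smallest, in set C, was 1.29 log2, and limma's F-test on the set-by-treatment terms gave an adjusted p of 1.74e-06 (F = 14.4). The direction was the same in 8 of 8 sets. The labels used here do not say how sets differ, and no property of the sets was tested against this difference.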

How the results depend on the processing

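The combined count of transporter probe sets called higher was 6 as reported, 6 with arrays centred on their medians, 7 under quantile normalization within sets, 4 when probe sets below the median level were left out (ABCB1, ABCG2 and ABCC2 were then not tested), 6 with a variance trend, 6 with the set as the unit, and 6 to 7 when a sample or set was left out. None was called lower under any of these. With the set as the unit the limma adjusted p was 7.97e-13 for SLC22A4, 4.78e-05 for ABCG2 and 0.000256 for ABCC5. For ABCC4 that fit gave 0.00496, for ABCB1 0.026, for ABCC2 0.037 and for the ABCC1 probe sets 0.0957 and 0.339. Over single sets the count was 24 as reported, 19 after centring, 30 under quantile normalization, 16 without dim probe sets and 22 to 26 when a sample was left out. The count of probe sets that differed between sets was 1 as reported, 0 without dim probe sets, where ABCG2 was not tested, and 1 to 3 when a sample was left out. ABCC2 then passed without imatinib replicate 2 of set C (adjusted p = 0.0101), 1 of set E (0.0483) or 2 of set F (0.04), and ABCC4 without imatinib replicate 1 of set E (0.0391). Over all alternatives the change ran from 2.69 to 2.77 for SLC22A4, 0.68 to 0.87 for ABCG2, 0.18 to 0.26 for ABCC4, 0.14 to 0.24 for ABCC5, 0.12 to 0.23 for ABCC2, 0.09 to 0.14 for ABCB1, and from 0.03 to 0.15 and 0.01 to 0.07 for the ABCC1 probe sets. The probe set 202804_at of ABCC1 crossed the threshold without dim probe sets (adjusted p = 0.0476), under quantile normalization and in 15 of the fits that left out a sample or set. Listed genes called higher were 74 as reported, 54 after centring, 63 under quantile normalization and 74 with the mean over probe sets, and those called lower were 19, 23, 22 and 21. Of the genes of other tissues, 5 were called higher after centring or quantile normalization, against 10 as reported. Over all probe sets 9019 were called without dim probe sets, against 14478 as reported, since fewer were tested. Samples with the same number within a set did not deviate together as a rule (median correlation 0.0161, against -0.0319 for other numbers, with 7 of 24 pairs over 0.1). Single pairs ran from -0.515 to 0.488. The labels' numbers are therefore not taken as pairs. With the replicate block the counts were 6 combined, 24 over single sets (ABCB1 in set B and ABCC4 in set D were lost, ABCC2 in set D and ABCC5 in set A were gained) and 1 between sets, with 14063 of all probe sets called and 973 differing between sets, against 1599 without the block.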

Other observations

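The measured genes on either side of the transporters were looked up in RefSeq gene order after the values had been seen. SLC22A5, which rose by 1.45, is the measured gene next after SLC22A4, and IRF1, an interferon response factor that follows it, rose by 0.39 (limma adjusted p = 1.86e-16). On the other side PDLIM4 rose by 0.13 and P4HA2, a collagen prolyl hydroxylase, by 0.41 (limma adjusted p = 1.58e-15). The neighbours of ABCG2 showed smaller changes than ABCG2: 0.06 for SPP1 (limma adjusted p = 0.254), 0.13 for MEPE, 0.13 for HERC6 and 0.09 for HERC5.

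Around the pumps that changed little, some neighbours moved more than the pump. CUTC, next before ABCC2, fell by 0.94 (limma adjusted p = 2.61e-23), and TGDS, near ABCC4, fell by 0.67 (limma adjusted p = 9.09e-20). PARL, a mitochondrial protease gene next before ABCC5, fell by 0.47, and DVL3, a Wnt signalling gene after it, rose by 0.54 (limma adjusted p = 2.16e-16). Around ABCB1 the changes were 0.14 for ABCB4, 0.13 for CROT, 0.07 for RUNDC3B and 0.09 for SLC25A40. Around ABCC1 they were 0.08 for MYH11, -0.09 for NDE1, 0.08 for XYLT1 and 0.05 for RPS15A.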
